A study of Sinibotia superciliaris with 2 samples.

Results

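The enzymes and the receptor examined here act on pteridines or carotenoids, the classes of compound that hold the yellow pigments of fish skin. Not all of them build pigment. They are GCH1 (GTP cyclohydrolase 1), QDPR (dihydropteridine reductase, Swiss-Prot entry DHPR), SCARB1 (scavenger receptor class B member 1, entry SCRB1) and BCO2 (beta-carotene oxygenase 2, entry BCDO2). Their members were taken by name only: a unigene, the gene identifier of the deposited files, belongs to a gene when its best Swiss-Prot match carries that entry name. This gave 7 unigenes for 4 genes, out of 124650 unigenes, of which 5675 had a Swiss-Prot match and formed 4058 genes. The skin came from wild adult Sinibotia superciliaris (also called Botia superciliaris), a striped loach, caught in the river and given no treatment. The fish weighed 6.25 ± 0.30 g and measured 8.75 ± 0.20 cm, and the labels do not say what the ± stands for. Black and yellow skin were taken from 6 fish and sequenced as 1 RNA library per colour, and the labels do not say whether the RNA of the fish was pooled. The comparison between the colours therefore has no replicate check and no p-value, and each difference below is one between these libraries.

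Xanthophores, the yellow to orange pigment cells of fish, hold pteridines, which the cell makes from GTP, and carotenoids, which it takes up from food. GCH1 opens the pteridine route by turning GTP into dihydroneopterin triphosphate, and sepiapterin reductase (SPR) works further down, near the point where yellow sepiapterin and the cofactor tetrahydrobiopterin arise. Carotenoids reach pigment cells bound to lipoproteins: in zebrafish xanthophores need SCARB1 to acquire them, and BCO2 cleaves them, so that in chickens low BCO2 activity in skin leaves the skin yellow. None of these genes is private to xanthophores. Tetrahydrobiopterin is also a cofactor of nitric oxide and neurotransmitter synthesis, and SCARB1 is a lipoprotein receptor of many tissues.

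Sequencing depth was alike, with 35386871 reads for black and 38323075 for yellow skin. Levels are in RPM, reads per 1000000 reads of the library, and are not divided by transcript length. Each ratio of RPM carries an approximate 95% interval that covers counting error only, with a read pair counted once. A log2 ratio is black over yellow on the log2(RPM + 1) scale, which understates differences of low genes. Over the 3644 genes with a mean of at least 1 RPM the median log2 ratio was 0.21 and the median ratio of RPM was 1.17, so a gene near these values sat with the bulk of genes. TMM scaling, which lines up the bulk of unigenes, moved the log2 of each RPM ratio by -0.19 and the median log2 ratio on the log2(RPM + 1) scale from 0.21 to 0.03. Genes of the pteridine and carotenoid lists whose call hangs on that shift are named below. The tissue labels could be checked in part: the 4 annotated melanophore markers of 9 sought were all higher in the black library, with a summed level of 21.5 RPM against 1.96 RPM. Of these, 3 had a mean of at least 1 RPM, and the other had 37 black and 5 yellow reads. Among epidermal keratins only 1 entry was annotated, so keratins could not serve as a check of skin. In bulk skin, fewer cells of a type and less RNA per cell cannot be told apart.

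GCH1 was higher in the yellow library, while the other members had higher values in the black library. None of the 4 genes was 2-fold apart on the log2(RPM + 1) scale, where the background over all genes was 0.823% for black and 0.137% for yellow. By the wider criterion that the counting interval of the ratio lies wholly on 1 side of no difference, GCH1 was on the yellow side, QDPR and SCARB1 were on the black side, and the interval of BCO2 included no difference. That criterion put 5.71% of all genes on the yellow side and 49.6% on the black side. A call on the black side was thus common among all genes and one on the yellow side was not, at this scaling. After TMM scaling the shares were 15.9% and 22.6%, GCH1 and SCARB1 kept their sides, and the interval of QDPR included no difference. Where level intervals are said below not to overlap, the share of all genes or unigenes with such intervals was not counted.

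GCH1, the entry enzyme of pteridine synthesis, was a single unigene, c100972_g1, whose closest protein was carp GTP cyclohydrolase 1 and whose closest transcript was zebrafish gch1. It had 240 reads in the black library, or 6.78 RPM (5.62 to 8.11), and 448 reads in the yellow library, or 11.7 RPM (10.2 to 13.3). The intervals of these levels do not overlap, and yellow skin was the higher. The ratio of yellow over black was 1.72 (1.37 to 2.17) and the log2 ratio was -0.71, which is -0.91 from the median of all genes. Ordered by log2 ratio from the yellow end, GCH1 was number 26 of the 3644 genes. After TMM scaling the black over yellow ratio was 0.510 (0.405 to 0.639). The predicted coding stretch of the unigene was 843 bases long and carried the GTP cyclohydrolase I domain.

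**Figure D1:**
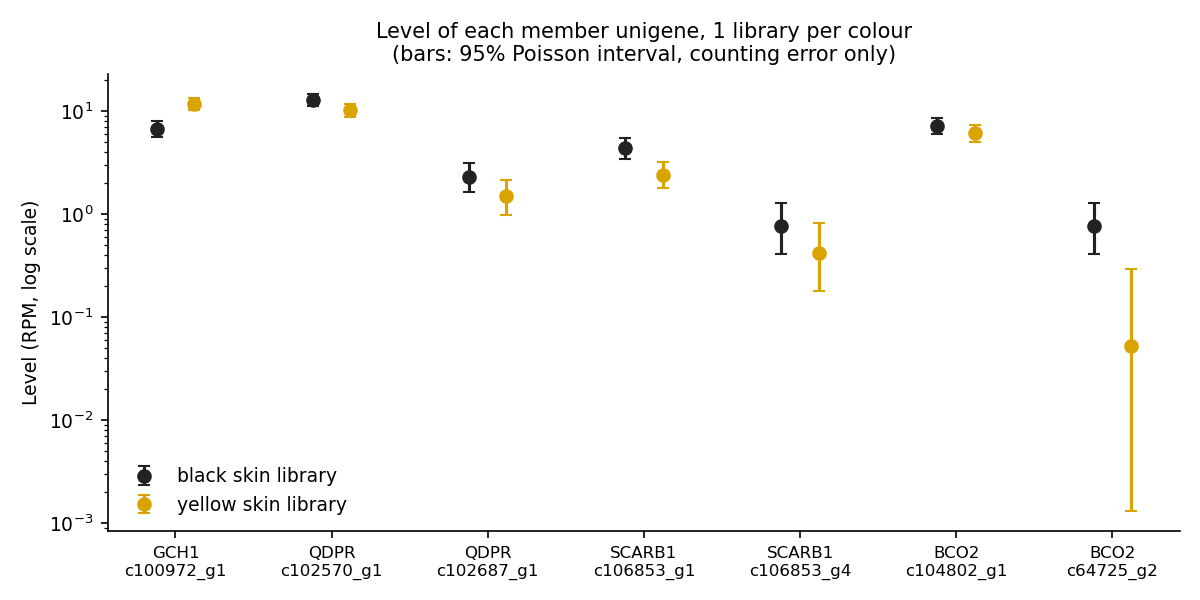
Level of each of the 7 unigenes in RPM (log axis) in the black and the yellow library, with 1 library per colour; bars are 95% Poisson intervals of the level with a read pair counted once. GCH1 at 6.78 and 11.7 RPM is the only pair with the yellow point on top, and the widest gap is that of the BCO2 unigene c64725_g2 at 0.763 and 0.0522 RPM.

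QDPR, which recycles spent dihydrobiopterin back to tetrahydrobiopterin, came from 2 unigenes that match different zebrafish genes. The larger, c102570_g1, had zebrafish qdpr b1 as its closest transcript and stood at 12.8 RPM in black skin (453 reads) and 10.2 RPM in yellow skin (392 reads). The smaller, c102687_g1, matched zebrafish qdpra and stood at 2.29 RPM in black skin (81 reads) and 1.49 RPM in yellow skin (57 reads). Both were thus higher in the black library, by ratios of 1.25 (1.03 to 1.52) and 1.54 (0.930 to 2.58), of which the latter interval includes no difference. With reads counted singly in place of pairs that interval was 1.08 to 2.20. With TMM scaling and pairs counted once, it was 0.817 to 2.27. Per kilobase of predicted coding sequence the b1 copy stood at 16.8 RPM and the a copy at 2.84 RPM in the black library, so the b1 copy was the more abundant. These values count reads on the whole unigene, with any noncoding stretches. The a copy held 15.2% of the QDPR reads in the black library (exact Clopper-Pearson interval 11.1 to 20.0) and 12.7% in the yellow library (8.64 to 17.8), and these intervals overlap. Over both copies QDPR was at 15.1 RPM in black skin (534 reads) and 11.7 RPM in yellow skin (449 reads), and the black over yellow ratio was 1.29 (1.07 to 1.55). Its log2 ratio of 0.34 lay 0.13 above the median of all genes, and QDPR was number 1061 from the black end. With TMM scaling the ratio was 1.13 (0.945 to 1.36).

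The deposited gene ontology terms name 5 genes for tetrahydrobiopterin synthesis, and GCH1 stood apart from the other members of that set. These are GCH1, SPR, QDPR and the carbinolamine dehydratases PCBD1 and PCBD2, which act in the regeneration of the cofactor. SPR, at 11.6 RPM in black and 11.2 RPM in yellow skin, had a ratio of 1.04 (0.855 to 1.27). PCBD1 stood at 13.5 and 11.7 RPM, a ratio of 1.15 (0.957 to 1.39), and PCBD2 at 7.34 and 5.63 RPM, a ratio of 1.30 (1.002 to 1.70). The 4 genes other than GCH1 thus had log2 ratios between 0.05 and 0.34, against -0.71 for GCH1. Shares within a library do not depend on how the libraries are scaled to each other. GCH1 held 240 of the 1923 reads of the set in the black library, or 12.5% (10.5 to 14.7), and 448 of 1990 in the yellow library, or 22.5% (20.0 to 25.2). Against QDPR alone, GCH1 held 31.0% of the reads of the pair in black skin (26.4 to 35.9) and 49.9% in yellow skin (45.2 to 54.7). Neither pair of intervals overlaps, so the balance between the entry enzyme and the rest of the set differed between these libraries beyond counting error. The set and these shares were chosen after the values were seen.

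**Figure D2:**
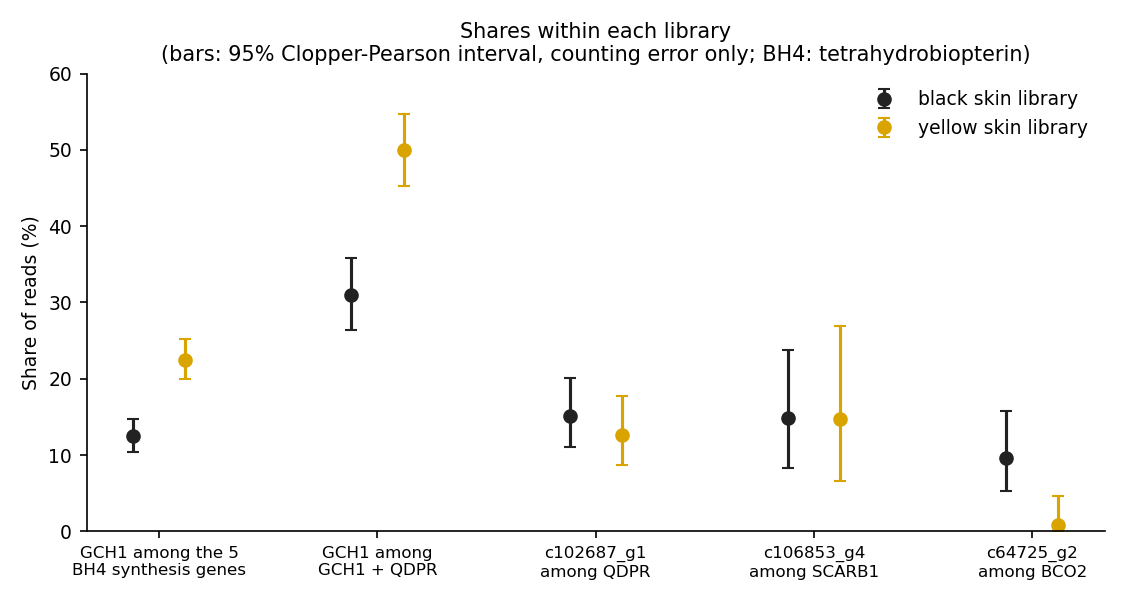
Share of reads (%) within each library, black and yellow points for 1 library each, with 95% Clopper-Pearson intervals. GCH1 holds 12.5% of the tetrahydrobiopterin set in black and 22.5% in yellow skin, the minor QDPR and SCARB1 unigenes hold like shares in both, and c64725_g2 holds 9.64% of BCO2 reads in black and 0.844% in yellow skin.

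SCARB1, the receptor through which zebrafish xanthophores obtain carotenoids, was the member furthest to the black side. Its 2 unigenes share an identifier stem and the same closest protein, zebrafish scavenger receptor class B member 1, and whether they are pieces of 1 transcript was not tested. The unigene c106853_g1 was at 4.38 RPM in black skin (155 reads) and 2.43 RPM in yellow skin (93 reads), a ratio of 1.80 (1.24 to 2.66). The unigene c106853_g4 was at 0.763 RPM in black skin (27 reads) and 0.417 RPM in yellow skin (16 reads), a ratio of 1.83 (0.709 to 5.06). Their ratios were close, and c106853_g4 held 14.8% of the SCARB1 reads in black skin (8.25 to 23.8) and 14.7% in yellow skin (6.56 to 26.9). Together they had 182 and 109 reads, or 5.14 and 2.84 RPM, with level intervals of 4.14 to 6.31 and 2.14 to 3.70 that do not overlap. The summed ratio was 1.81 (1.28 to 2.58), and with TMM scaling 1.59 (1.12 to 2.27). The log2 ratio of 0.68 lay 0.47 above the median of all genes, number 143 of 3644 from the black end. Both unigenes carried the CD36 family domain, with predicted coding stretches of 1149 and 438 bases.

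BCO2, which splits carotenoids at an off-centre bond, sat near the bulk of genes as a sum, while its 2 unigenes differed from each other. Summed, it stood at 7.91 RPM in black skin (280 reads) and 6.18 RPM in yellow skin (237 reads), a ratio of 1.28 (0.995 to 1.65) and a log2 ratio of 0.31, number 1206 from the black end. With reads counted singly in place of pairs the interval was 1.07 to 1.53, so the call on BCO2 depends on the counting unit. With TMM scaling and pairs counted once, the ratio was 1.12 (0.874 to 1.45). Most of these reads belonged to c104802_g1, whose closest protein is a predicted zebrafish beta-carotene oxygenase of this type and whose coding stretch was 1728 bases long. It was at 7.15 RPM in black skin (253 reads) and 6.13 RPM in yellow skin (235 reads), a ratio of 1.17 (0.900 to 1.51), which equals the median ratio of all genes to the digits given.

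The other BCO2 unigene, c64725_g2, matched zebrafish bco2a over a shorter coding stretch of 465 bases. It had 27 reads in the black library, or 0.763 RPM (0.412 to 1.29), and 2 reads in the yellow library, or 0.0522 RPM (0.00132 to 0.291). The level intervals do not overlap, and the black over yellow ratio was 14.6, with an interval of 2.21 to 620 that shows how little the yellow reads fix its size. With TMM scaling the interval was 1.94 to 545, so that it no longer lay wholly beyond 2-fold. At a mean of 0.407 RPM the unigene was below the abundance minimum, and its log2 ratio was 0.74 because the scale compresses low values. It held 9.64% of the BCO2 reads in black skin (5.31 to 15.8) and 0.844% in yellow skin (0.0214 to 4.61). Per kilobase of predicted coding sequence, it stood at 1.64 RPM against 4.14 RPM for c104802_g1 in black skin, and at 0.112 against 3.55 RPM in yellow skin.

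Counted by unigene, 6 of the 7 had a higher value in the black library. Most genes past the minimum did too, with a median log2 ratio of 0.21, and the same share over all unigenes was not counted. The interval lay wholly on the black side for 3 of the 7 (c102570_g1, c106853_g1 and c64725_g2) and on the yellow side for 1, c100972_g1 of GCH1. Among the 84215 unigenes with at least 10 reads over both libraries, 15.4% were on the black side and 4.39% on the yellow side. That background includes unigenes with few reads, whose intervals are wide, and it was not matched to the read numbers of the 7. It therefore does not show an excess among them. Over genes, 49.6% were on the black side. An interval wholly beyond 2-fold on the black side, as for c64725_g2, was found in 0.505% of these unigenes, and one wholly beyond 2-fold on the yellow side in 0.178%. With TMM scaling c102570_g1 lost its side, with an interval of 0.905 to 1.34, and the interval of c106853_g1 was 1.09 to 2.33.

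The wider pteridine and tetrahydrobiopterin genes showed no common lean to yellow skin. Of the 18 genes listed, 7 were annotated, all past the minimum, and their median log2 ratio was 0.19 against 0.21 for all genes. Intervals lay on the black side for 3, on the yellow side for GCH1 alone, and included no difference for 3. Those on the black side beside QDPR were AGMO and PCBD2. AGMO, an ether lipid monooxygenase that uses tetrahydrobiopterin, was at 3.87 and 1.56 RPM, the highest ratio of the list at 2.47 (1.59 to 3.94). NOS2, a nitric oxide synthase that uses the same cofactor, was at 1.67 and 1.83 RPM with a ratio of 0.913 (0.540 to 1.53). The black share of 3 in 7 stands beside 49.6% of all genes. With TMM scaling AGMO alone was on the black side and GCH1 alone on the yellow side, and the intervals of QDPR and PCBD2 (0.881 to 1.49) included no difference. PTS and XDH of the same route, and GCHFR, a regulator of GCH1, were not analysed here.

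Carotenoid and retinoid genes also sat around the bulk. Of the 26 genes listed, 9 were annotated in 10 entries, 9 of these were past the minimum, and their median log2 ratio was 0.25. Intervals lay on the black side for 4 and on the yellow side for 0, and 5 included no difference. That is 44.4% on the black side, beside 49.6% of all genes. At this scaling the black side held SCARB1, RETSAT, ABCA1 and 1 of the RDH10 copies. RETSAT, which saturates retinol, was at 31.6 RPM in black and 24.0 RPM in yellow skin, a ratio of 1.31 (1.16 to 1.49). ABCA1, a lipid efflux pump, was at 192 and 161 RPM, a ratio of 1.19 (1.13 to 1.25). The copies of RDH10, which oxidises retinol, pointed apart. The entry RD10B had a ratio of 1.37 (1.06 to 1.77), and RD10A, at 1.67 RPM in black and 2.66 RPM in yellow skin, one of 0.626 (0.384 to 1.005).

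SCARB2, the lysosomal relative of SCARB1, was at 174 RPM in black and 175 RPM in yellow skin and had a ratio of 0.996 (0.948 to 1.05). Its interval ends below the lower bound for SCARB1, so these relatives differed beyond counting error. DHRS3, a retinal reductase, had a ratio of 0.969 (0.747 to 1.26), and the retinoic acid synthesis enzymes ALDH1A2 and ALDH1A3, the latter below the minimum, had ratios of 0.760 (0.429 to 1.33) and 0.738 (0.356 to 1.49). With TMM scaling SCARB1 and RETSAT stayed on the black side, while the intervals of ABCA1 (0.997 to 1.10) and RD10B (0.935 to 1.56) included no difference. SCARB2 (0.834 to 0.920) and RD10A (0.338 to 0.883) were then on the yellow side. BCO1, STARD3, PLIN2 and CD36 were not analysed here.

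**Figure D3:**
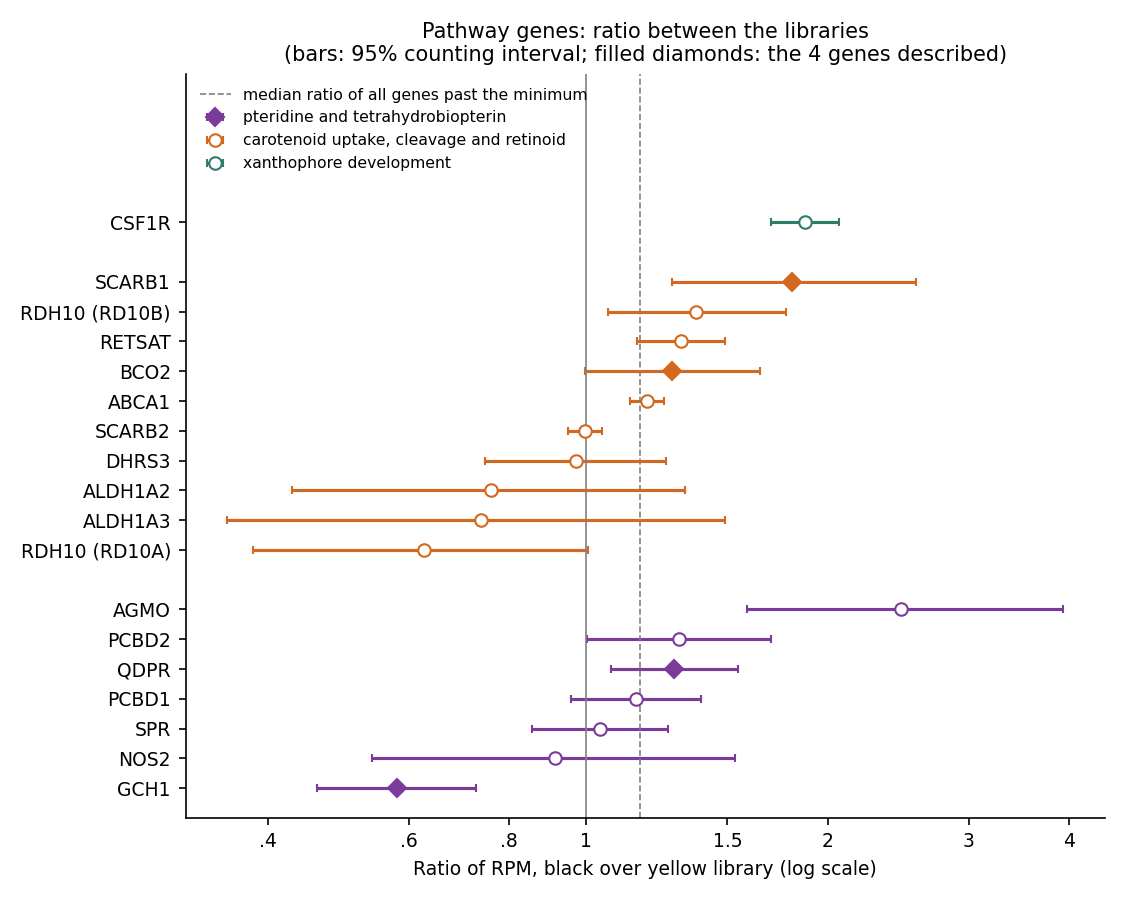
Ratio of RPM, black over yellow library (log axis), of each annotated gene of the pteridine, carotenoid and xanthophore development lists, with 95% counting intervals; the solid line marks no difference and the dashed line the median ratio of all genes, 1.17. GCH1 at 0.580 is the lowest point and the only one with its interval wholly below 1, while AGMO at 2.47 and CSF1R at 1.87 lie highest.

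Markers of other cells were examined beside these genes. Of 9 xanthophore development genes, CSF1R was the only one annotated. This receptor, required by xanthophores in zebrafish and also carried by macrophages, was at 65.3 RPM in black and 34.8 RPM in yellow skin, a ratio of 1.87 (1.70 to 2.06). It was thus on the side opposite to GCH1 and the same side as SCARB1. Of 13 macrophage and leukocyte markers sought, CSF1R among them, 7 were annotated and none of these was at 0. However, 1 of the annotated markers was below the minimum and had no more than the 6 reads that a count of 0 allows, in both libraries. All 6 past the minimum had intervals on the black side, where 49.6% of all genes lay, and also with TMM scaling, where 22.6% did. The summed level of the list was 185 RPM in black and 103 RPM in yellow skin. The 9 annotated skeletal muscle markers of 16 summed to 2832 and 3114 RPM, with 3 intervals on the black and 4 on the yellow side, or 2 and 5 with TMM scaling. Without TMM scaling these are 33.3% on the black and 44.4% on the yellow side, beside 49.6% and 5.71% of all genes. With TMM scaling the shares of all genes were 22.6% and 15.9%. Whether leukocyte, melanophore or muscle RNA has a part in the values of GCH1, QDPR, SCARB1 or BCO2 was not tested.

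**Figure D4:**
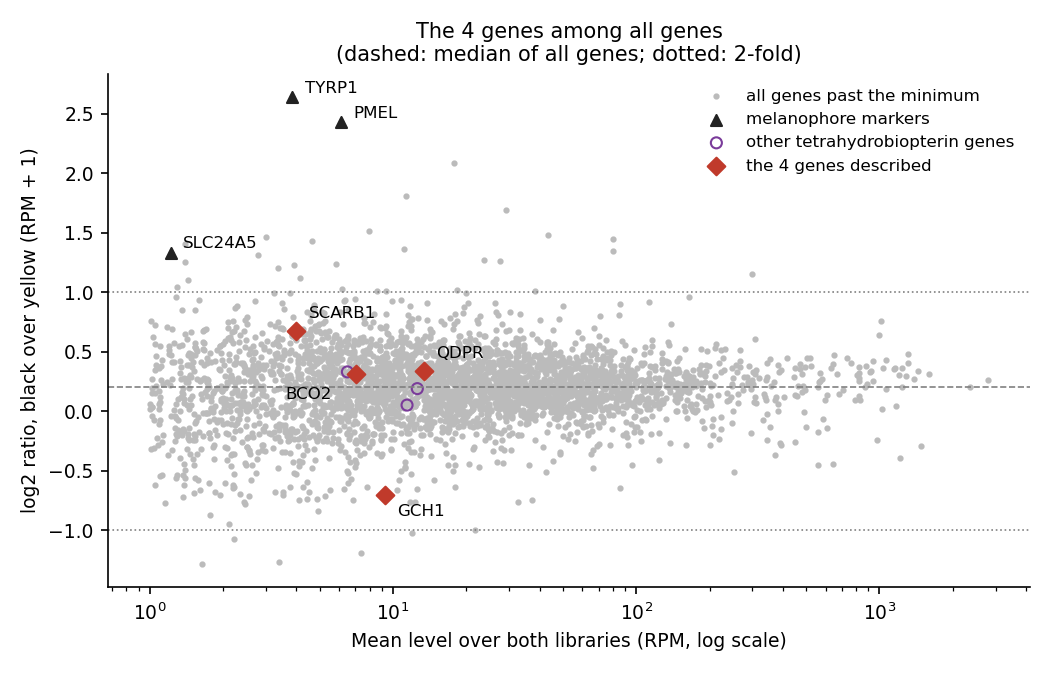
Log2 ratio, black over yellow on the log2(RPM + 1) scale, against the mean level in RPM (log axis) for the 3644 genes past the minimum, with the median of 0.21 dashed and 2-fold dotted. GCH1 at -0.71 lies near the lower edge of the cloud, SCARB1 at 0.68 in its upper part, and QDPR and BCO2 within it. The 3 melanophore markers past the minimum lie above the upper 2-fold line, as do some other genes.

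The annotated genes nearest to each member in log2(RPM + 1) over the 2 libraries came from many kinds of gene. This measure is of little weight with so few libraries, and the levels are not per length. For GCH1 they were MYSC, a cardiac-type myosin heavy chain, at 6.64 RPM in black and 11.7 RPM in yellow skin, and ABCC8, a subunit of a potassium channel, at 7.82 and 13.0 RPM. For SCARB1 they were HS3SA, a heparan sulfate sulfotransferase, with 177 black and 112 yellow reads, and AP4B1, an adaptor subunit of vesicle traffic, at 4.91 and 2.79 RPM. The genes nearest to QDPR were STRAA, a kinase adapter, and P3IP1, an inhibitor of a lipid kinase. Those nearest to BCO2 were MED16, a Mediator subunit, and PCDGM, a protocadherin.

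What the members share beyond their names was read from the deposited annotation. GCH1 and QDPR carried the terms for tetrahydrobiopterin synthesis and the cytosol, and QDPR and BCO2 carried the term for the mitochondrion. GCH1 and SCARB1, which lie at opposite ends of the 4 genes, both carried the term for positive regulation of nitric oxide synthase activity. The only predicted membrane helix among the 7 unigenes was that of c106853_g1 of SCARB1, and none had a predicted signal peptide.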

How the data were processed

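RNA of black and of yellow skin, 1 library each, was analysed from the files the authors deposited. Per the labels' protocols, Trizol was used for RNA and a standard Illumina procedure for the libraries. The zebrafish build GRCz11 is named without a role, per the submitters' processing notes. Neither assembler, aligner nor counter is given in the sources used here. The deposited signal per unigene is in RPM; this unit was inferred from the values, as no header states it. Repeated lines of a unigene (4131 of 128781) held the same signal and were used once. Values rise in steps of 1 read, which gave back whole reads (0.0282 RPM per read in black, 0.0261 in yellow; 100% of values whole within 0.1 read), taking the lowest value, 0.5 of a step, as 0 reads. Since 2 reads were commoner than 1 or 3 in both libraries, mates of a pair appear to have been counted singly, and intervals count a pair once. Intervals are approximate, since an odd read number is no whole number of pairs. A count test was not run, since 1 library per colour leaves no residual spread; an interval wholly beyond 2-fold, added after seeing the data, called 26 genes. The deposited annotation, with a BLAST score per match per the file headers, served for names and terms. It names 4.55% of unigenes and its last record breaks off, so a longer table may exist. A name is a best match and does not establish orthology.

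Unigenes were summed by Swiss-Prot entry. Ratio intervals follow Clopper and Pearson given the summed reads, and level intervals are exact Poisson intervals, both at 95%. PCR copies are not covered. A gene was called at 2-fold on log2(RPM + 1) with a mean of at least 1 RPM, or by its interval. A further gene of the pteridine route is not reported here. The 4 genes, the gene lists and the rules were chosen with earlier results of these data known. Named genes were the 4 members, their unigenes with at least 10 reads, every annotated gene of the pteridine, carotenoid and xanthophore lists, and the 2 nearest genes of each member. The steps were tested on simulated data. Alternatives covered scaling (TMM of edgeR 4.0.16, median of ratios, totals without the 100 most abundant unigenes), pseudocount, minimum and joining. Python 3.11.15 with scipy 1.17.1 was used.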

Additional observations from a re-analysis of the deposited data

How the results depend on the processing

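No paired analysis was possible because there is 1 library per colour. The log2 ratios of the members kept their sign and stayed within their counting interval under every alternative run: GCH1 ranged from -0.91 to -0.50, QDPR from 0.17 to 0.36, SCARB1 from 0.37 to 0.83 and BCO2 from 0.15 to 0.35. SCARB1 has no value at a minimum mean of 5 RPM, which it does not reach. Changes of the minimum and of the protein match used for names otherwise left every member value unchanged. A pseudocount cannot change a sign, so only the scalings and the use of the most abundant unigene could have done so. GCH1 has 1 unigene, so for it only the scalings could. Scaling decided the side of QDPR, whose interval included no difference under TMM (0.945 to 1.36), median of ratios (0.972 to 1.40) and the totals without the 100 most abundant unigenes (0.944 to 1.36). The pteridine genes with an interval beyond no difference were 4 as reported (3 black, 1 yellow) and 2 under each of these scalings (1 black, 1 yellow, GCH1). The carotenoid split of 4 black and 0 yellow became 2 and 2 with TMM and without the 100 most abundant unigenes, and 3 and 2 with median of ratios. With single reads in the interval the pteridine split was 4 and 1 and the carotenoid split 5 and 1. Of all genes, 49.6% were on the black and 5.71% on the yellow side as reported, and 22.6% and 15.9% with TMM. The shares of all genes under the other settings were not counted, so those splits have no background beside them. The genes 2-fold apart, 35 as reported (30 black, 5 yellow), were 86 with a pseudocount of 0.1, 11 with 5, 20 at a minimum mean of 5 RPM and 3 at 4-fold; a lower pseudocount admits more low genes by construction and a stricter rule fewer. They split 22 and 7 with TMM, 24 and 7 with median of ratios, and 29 and 13 without the 100 most abundant unigenes. An interval wholly beyond 2-fold called 26. Depth limits the low unigenes most: counted in pairs as for the intervals, the limit a count of 0 allows is 3 pairs, or 0.169 RPM in black and 0.156 in yellow, above the 2 yellow reads of c64725_g2.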

Other observations

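Retinol metabolism, the route that carotenoid cleavage can feed, was looked up in the deposited pathway maps after the values were seen. Of 22 entries on that map, 19 were past the minimum, with a median log2 ratio of 0.14 against 0.21 for all genes. Intervals of the ratio lay on the black side for 7, on the yellow side for 1, and included no difference for 11. These are 36.8% and 5.26%, beside 49.6% and 5.71% of all genes, and with TMM scaling each side held 2. The one on the yellow side was RDHE2, an epidermal-type retinol dehydrogenase, at 5.85 RPM in black and 8.11 RPM in yellow skin, a black over yellow ratio of 0.721 (0.557 to 0.930). CP26B, which breaks down retinoic acid, was at 51.7 and 42.5 RPM, a ratio of 1.22 (1.11 to 1.34), and its relative CP26C was at 9.80 and 7.33 RPM, a ratio of 1.34 (1.06 to 1.68). With TMM scaling the intervals of CP26B and CP26C included no difference. Of these 19 the highest was QOR, a quinone reductase, at 6.04 and 2.24 RPM, with a ratio of 2.69 (1.88 to 3.93). Its log2 ratio of 1.12 was the only one of the 19 past 2-fold. Below the minimum, RDH12 was at 1.21 RPM in black and 0.287 RPM in yellow skin, a ratio of 4.23 (1.61 to 13.5). Intervals of the other entries below the minimum included no difference.

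MOCS1, which starts molybdenum cofactor synthesis from GTP and so shares the substrate of GCH1, was at 5.90 RPM in black and 6.31 RPM in yellow skin, with a ratio of 0.935 (0.713 to 1.23). The interval of GCH1 ends at 0.727, so the intervals overlap slightly.

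Some unigenes share the identifier stem of a member but are without a Swiss-Prot match in the deposited annotation, so they bear no gene name here. The unigene c64725_g1, which shares its stem with the bco2a match c64725_g2, had 21 black and 5 yellow reads, a black over yellow ratio of 4.55 (1.09 to 31.3). Its yellow level of 0.130 RPM was below the 0.156 RPM that a count of 0 allows. TMM scaling, which moves the log2 of each RPM ratio by -0.19, brings its interval to include no difference. The 4 that share the stem of the SCARB1 unigenes, c106853_g2, c106853_g3, c106853_g5 and c106853_g6, had ratios of 0.866, 1.13, 1.56 and 1.02, and each interval included no difference.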
